A study of Mus musculus with 6 samples.

Results

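The interferon response and MHC class I genes are 39 genes that were picked by symbol from the 17606 genes of an expression table of mouse corneal keratocytes. All 39 were in the table and all 39 passed the filter on low counts that left 13888 genes to test. They comprise 29 interferon-stimulated genes and regulators of the interferon response (5 transcription and signaling factors, 19 antiviral effectors, 2 PARP family genes and 3 guanylate binding proteins) and 10 genes of MHC class I antigen presentation (4 chains, 5 genes of peptide supply and 1 transactivator).

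Keratocytes, the mesenchymal cells of the corneal stroma, were sorted by flow cytometry from corneas of 10-week-old mice, and their RNA was sequenced in bulk. Both groups received 3 doses of tamoxifen, and the labels give 1 month for the treatment. The 3 Ptch1-ablated libraries came from Prrx1-CreERT;Ptch1 mice, in which tamoxifen switches on a Cre recombinase expressed from the Prrx1 locus to remove floxed Ptch1, the receptor that restrains Hedgehog signaling. The 3 control libraries came from mice labelled only as controls, and nothing used here says how many animals went into a library. Per the study, this Cre also recombines in mesenchymal cells of the eye other than keratocytes. The comparison asked how Hedgehog activation altered keratocyte transcripts, and here how it altered the interferon and MHC class I genes.

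Interferons are secreted proteins that bind cell surface receptors and, through JAK kinases, activate transcription factors, among them Stat2 and Irf9. Complexes that hold Stat2 and Irf9 bind interferon-stimulated response elements, and STAT dimers bind gamma-activated sites, so that many genes that limit viral replication are transcribed together. MHC class I molecules, made of a heavy chain and beta-2-microglobulin, show peptides cut by the proteasome to CD8+ T cells. Their genes are expressed in most nucleated cells and are also inducible by interferon, whereas the healthy cornea is known for low antigen presentation and immune privilege.

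Library totals ran from 20258439 to 24788063 estimated counts. In a principal component analysis the groups separated on the first axis (43.7% of the variance), and control replicate 1 and Ptch1-ablated replicate 2 stood apart on the second (23.4%). The labels were checked on the Hedgehog target Gli1, with counts of 1, 20 and 36 in control replicates 1 to 3 and of 3022, 3042 and 3098 in Ptch1-ablated replicates 1 to 3. Counts of Ptch1 itself, over the whole gene rather than the floxed part, were 104 to 369 against 4348 to 6230, and those of Hhip, another target, 12 to 31 against 23979 to 26893. The 9 keratocyte markers were abundant in every library, with a summed level of 140057 to 160920 CPM in controls and 83041 to 94708 CPM in Ptch1-ablated libraries. CPM here are counts divided by the TMM-scaled library total, times 1000000. In bulk RNA, fewer cells of a type and less RNA per cell cannot be told apart.

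Few of the 39 genes passed the test, namely 4 interferon-stimulated genes that rose and 1 MHC class I gene that fell. The guanylate binding protein genes Gbp2 and Gbp3, the oligoadenylate synthetase-like gene Oasl2 and the transcription factor gene Stat2 rose in Ptch1-ablated keratocytes, and the classical MHC class I heavy chain gene H2-D1 fell. These 5 of 39 genes passed at an adjusted p of at most 0.05 (edgeR quasi-likelihood test, two-sided, Benjamini-Hochberg over the 13888 genes). Errors of log2 fold changes are standard errors of that fit. The 4 that rose were 10.3% of the set, against a background of 4.68% of all genes tested that rose. The 1 that fell was 2.56% of the set, against a background of 3.80% of all genes tested that fell. Gbp2 and Gbp3 also reached the 2-fold change that the study's methods require, or 2 of 39 (5.13%) against 5.49% of all genes tested. Fold changes lay above 0 on the log2 scale in 27 of 39 genes (69.2%, against 50.4% of all genes tested), with a median of 0.28 beside 0.0046 over all genes.

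**Figure D1:**
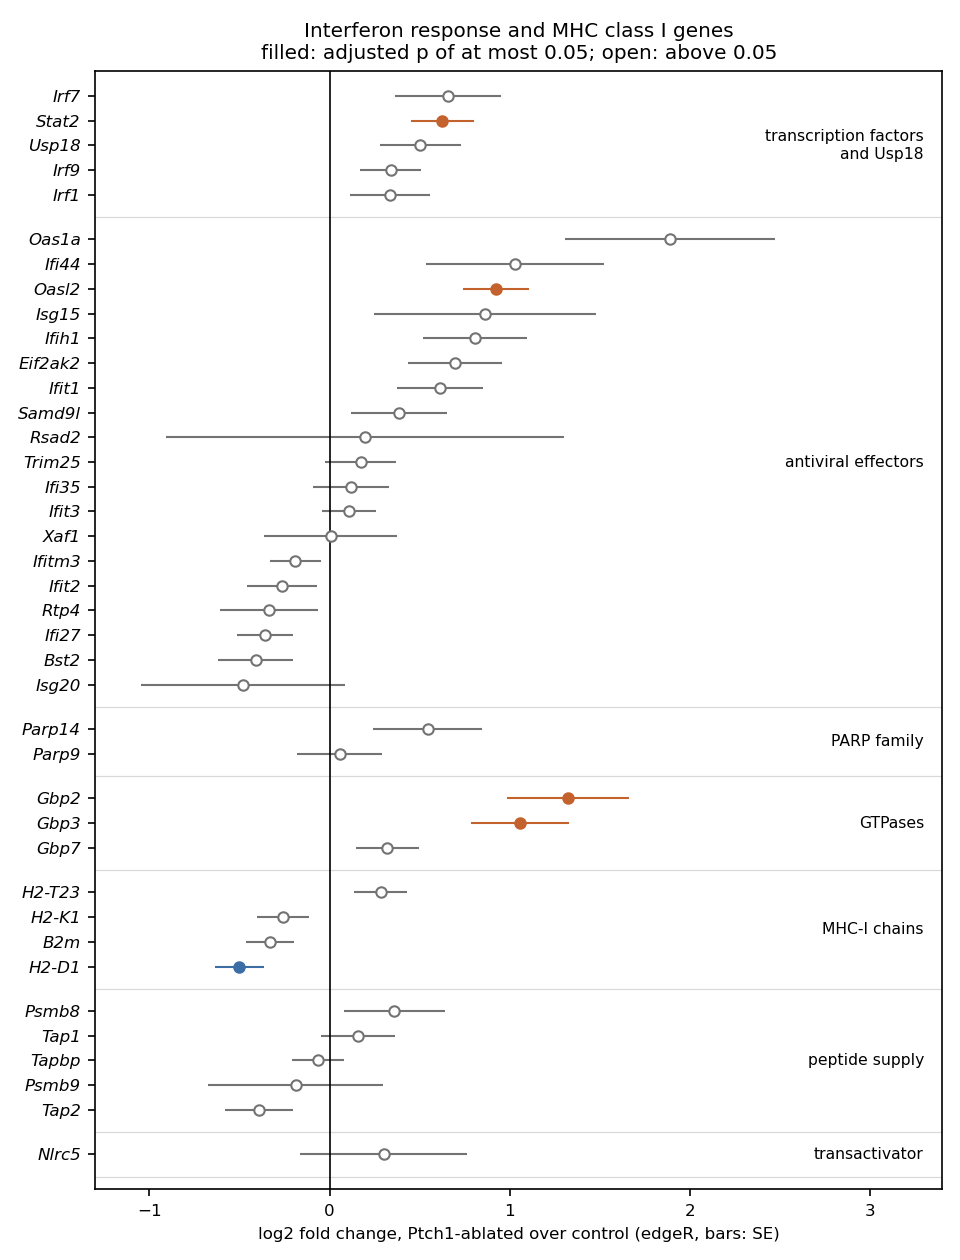
Log2 fold change of each of the 39 genes (x axis, Ptch1-ablated over control, points with SE bars), grouped by role (y axis), with filled points for an adjusted p of at most 0.05. The 4 filled points to the right of 0 are Stat2, Oasl2, Gbp2 and Gbp3, and the 1 filled point to the left is H2-D1 at -0.50.

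With no adjustment, 10 genes had a p under 0.05 on the higher side (25.6% of the set, against 10.8% of all genes tested) and 3 on the lower side (7.69%, against 9.72%). In 12 genes each Ptch1-ablated library lay above each control (30.8%, against 14.1%), in 6 each lay below (15.4%, against 13.3%), and in the other 21 the groups overlapped. Over the 29 interferon genes the median was 0.34, 23 were above 0 and all 4 rises were among them. Over the 10 MHC class I genes the median was -0.13, 4 were above 0 and the fall of H2-D1 was among them. That second median was above 0 when libraries were scaled by their totals only (0.04), in limma on TPM (0.11) and without control replicate 2 (0.01). The median of all genes was 0.17 with totals only, 0.19 and 0.22 in the limma fits and 0.01 without control replicate 2. With totals only and in limma, the median of the 10 genes thus stayed below that of all genes. The difference between these medians was not tested.

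The number of genes that passed changed when single libraries were left out, in the set and over all genes. Over all genes, 424 to 587 rose and 327 to 439 fell without 1 library, against 650 and 528 with all 6 libraries. Leaving out Ptch1-ablated replicate 1, Ptch1-ablated replicate 2, control replicate 1 or control replicate 2 left 1 rise, that of Oasl2, and leaving out Ptch1-ablated replicate 3 left Oasl2 and Gbp3. Without control replicate 3 there were 5 rises. H2-D1 passed only when the library left out was control replicate 1. Genes past both thresholds numbered 0 without control replicate 1, Ptch1-ablated replicate 1 or Ptch1-ablated replicate 2, 1 without control replicate 2 or Ptch1-ablated replicate 3, and 4 without control replicate 3. The median of the set was lowest, 0.16, without Ptch1-ablated replicate 3.

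The promoters of the genes that passed, and of 3 others, are shown because exact matches to a response element of the pathway lie there in some and not in others. RefSeq windows from 250 bases before to 50 bases after the transcription start (assembly GRCm38.p6) were available for 32 of the 39 genes, some of which had more than 1 window. They were searched on both strands for the interferon-stimulated response element as GAAANNGAAA, which reads TTTCNNTTTC on the other strand, and for the gamma-activated site as TTCNNNGAA. Capitals mark matches to the first motif, and the second has no match in the windows of the 8 genes shown.
Gbp2, chr3:142620553-142620662, plus strand: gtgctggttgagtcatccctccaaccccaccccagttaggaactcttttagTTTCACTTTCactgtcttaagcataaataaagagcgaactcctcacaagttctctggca
Gbp3, chr3:142559934-142560043, plus strand: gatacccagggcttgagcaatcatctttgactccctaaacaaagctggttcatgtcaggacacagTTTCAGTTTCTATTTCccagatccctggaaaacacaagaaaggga
Stat2, chr10:128270258-128270367, plus strand: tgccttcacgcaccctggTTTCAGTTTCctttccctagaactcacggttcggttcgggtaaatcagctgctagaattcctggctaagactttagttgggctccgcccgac
Isg15, chr4:156200819-156200928, minus strand: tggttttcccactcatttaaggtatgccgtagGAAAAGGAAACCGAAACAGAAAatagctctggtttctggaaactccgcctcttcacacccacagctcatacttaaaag
B2m, chr2:122147487-122147596, plus strand: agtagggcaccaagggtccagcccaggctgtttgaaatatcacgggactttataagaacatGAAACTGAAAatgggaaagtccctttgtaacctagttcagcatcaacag
Oasl2, chr5:114896824-114896933, plus strand: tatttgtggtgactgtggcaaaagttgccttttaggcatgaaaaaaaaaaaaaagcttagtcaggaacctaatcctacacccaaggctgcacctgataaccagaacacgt
H2-D1, chr17:35262894-35263003, plus strand: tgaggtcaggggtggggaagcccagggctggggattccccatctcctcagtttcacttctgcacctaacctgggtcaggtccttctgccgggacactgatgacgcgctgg
H2-K1, chr17:34000438-34000547, minus strand: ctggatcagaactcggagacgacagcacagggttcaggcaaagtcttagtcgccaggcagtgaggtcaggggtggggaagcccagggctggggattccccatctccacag

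Gbp2, Gbp3 and Stat2 each held the response element, with 2 overlapping matches in Gbp3, and Isg15 held 3 that overlapped in a row. Oasl2 and H2-D1, which also passed, and H2-K1 held no exact match in any of their windows, which says only that these letters were not there. The longest run that the H2-D1 and H2-K1 windows shared before their starts was 47 identical bases. Across the set the response element was matched in 15 of 32 genes (46.9%), against 1079 of 27025 genes in the RefSeq promoter table (3.99%). The gamma-activated site was matched in 10 of 32 (31.2%), against 9.55% of genes. Matches of the 2 motifs shared bases in Bst2 and Ifitm3. Fold changes had a median of 0.61 (log2) in the 15 genes with the response element, 3 of which rose, and of 0.16 in the 17 without it, of which 1 rose and 1 fell. This difference was not tested. A match is a match of letters and not a measured binding site.

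**Figure D2:**
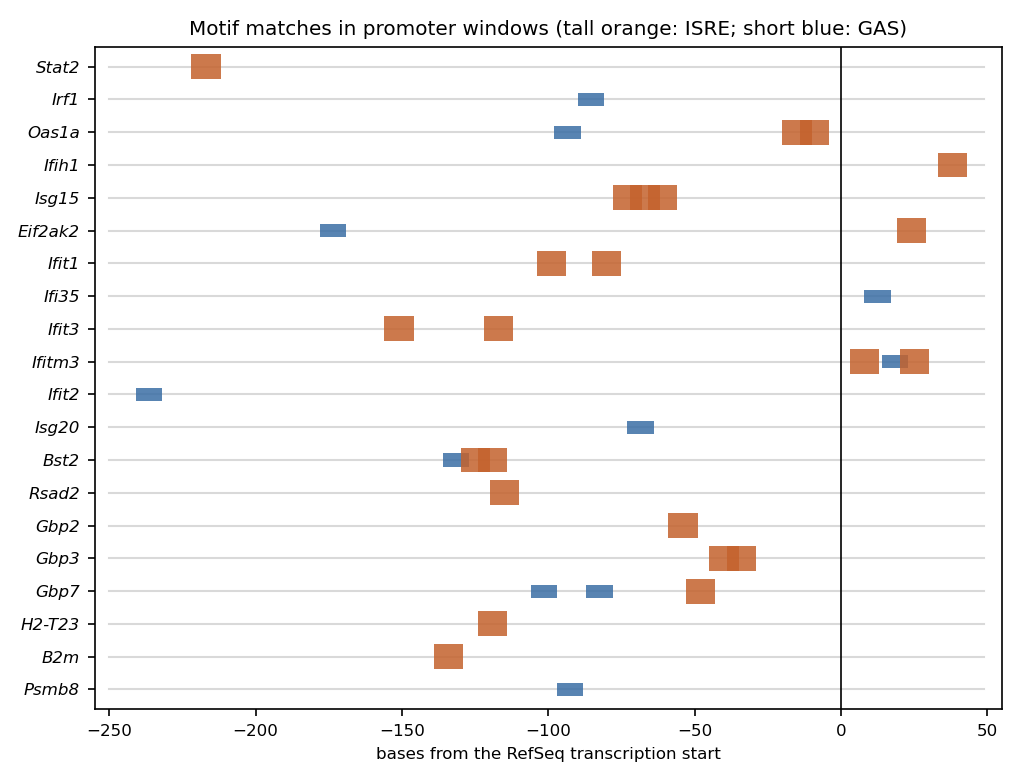
Positions of motif matches (x axis, bases from the RefSeq transcription start) in the promoter windows of the genes with a match (y axis), with tall orange boxes for the interferon-stimulated response element and short blue boxes for the gamma-activated site. Gbp2, Gbp3 and Gbp7 hold the response element between bases -59 and -30, and the match in Stat2 lies at -222 to -213.

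Among the regulators, Stat2, the partner of Irf9 in the complex that reads interferon-stimulated response elements, was the 1 of 5 that passed. Stat2 (Entrez 20847) measured 40.1, 44.9 and 45.6 CPM in control replicates 1 to 3 and 68.5, 66.4 and 66.7 CPM in Ptch1-ablated replicates 1 to 3. The Ptch1-ablated libraries were close together and all above the controls. Stat2 rose by a log2 fold change of 0.63 ± 0.17 (edgeR adjusted p = 0.0457), and it passed in 6 of 15 alternative fits. The call was lost in each fit without 1 library, under upper quartile scaling, with no low-count filter and under the replicate block. All 6 estimated counts of Stat2 were fractional. Irf9, the DNA-binding member of the same complex, measured 70.9, 91.9 and 90.5 CPM against 109, 96.4 and 115 CPM, with no overlap and a log2 fold change of 0.34 ± 0.17 that did not pass (edgeR adjusted p = 0.288). Usp18, a protease that removes Isg15 and restrains the type I interferon receptor, measured at most 29.1 CPM in the controls and 40.8, 30.0 and 40.5 CPM in the Ptch1-ablated libraries and had a log2 fold change of 0.50 ± 0.23. Irf7, which amplifies interferon transcription, overlapped between groups at 19.9 to 41.1 against 38.5 to 66.7 CPM, and its log2 fold change was 0.66 ± 0.29. Irf1, a factor induced by interferon gamma, measured 55.4 to 62.0 CPM in controls and 52.7, 74.4 and 97.9 CPM in Ptch1-ablated replicates 1 to 3, so that only replicates 2 and 3 were above the controls. All 5 regulators had a fold change above 0 in each of the 15 alternative fits. Irf9 and Usp18 passed in both limma fits on TPM and in no other fit.

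The oligoadenylate synthetases sense double-stranded RNA and, in their active forms, switch on an RNase, while the mouse Oasl2 protein carries a ubiquitin-like part. Oasl2 (Entrez 23962) measured 45.5, 63.2 and 60.3 CPM in the controls and 120, 102 and 98.7 CPM in the Ptch1-ablated libraries. The lowest Ptch1-ablated library was well above the highest control. Oasl2 rose by a log2 fold change of 0.92 ± 0.18 (edgeR adjusted p = 0.0076), and it passed in 15 of 15 alternative fits, in which the fold change ran from 0.79 to 1.15. Oas1a (Entrez 246730) had the largest log2 fold change of the set, 1.89 ± 0.59, and did not pass (edgeR adjusted p = 0.0722). Its values were 0.872, 3.73 and 5.69 CPM in the controls and 8.91, 13.9 and 15.4 CPM in the Ptch1-ablated libraries, so the groups did not overlap but the controls spread widely. Oas1a passed in 6 of 15 alternative fits, among them DESeq2. All 6 of its estimated counts were fractional, since RSEM divides a read among the genes it fits, and the gene has close paralogs.

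**Figure D3:**
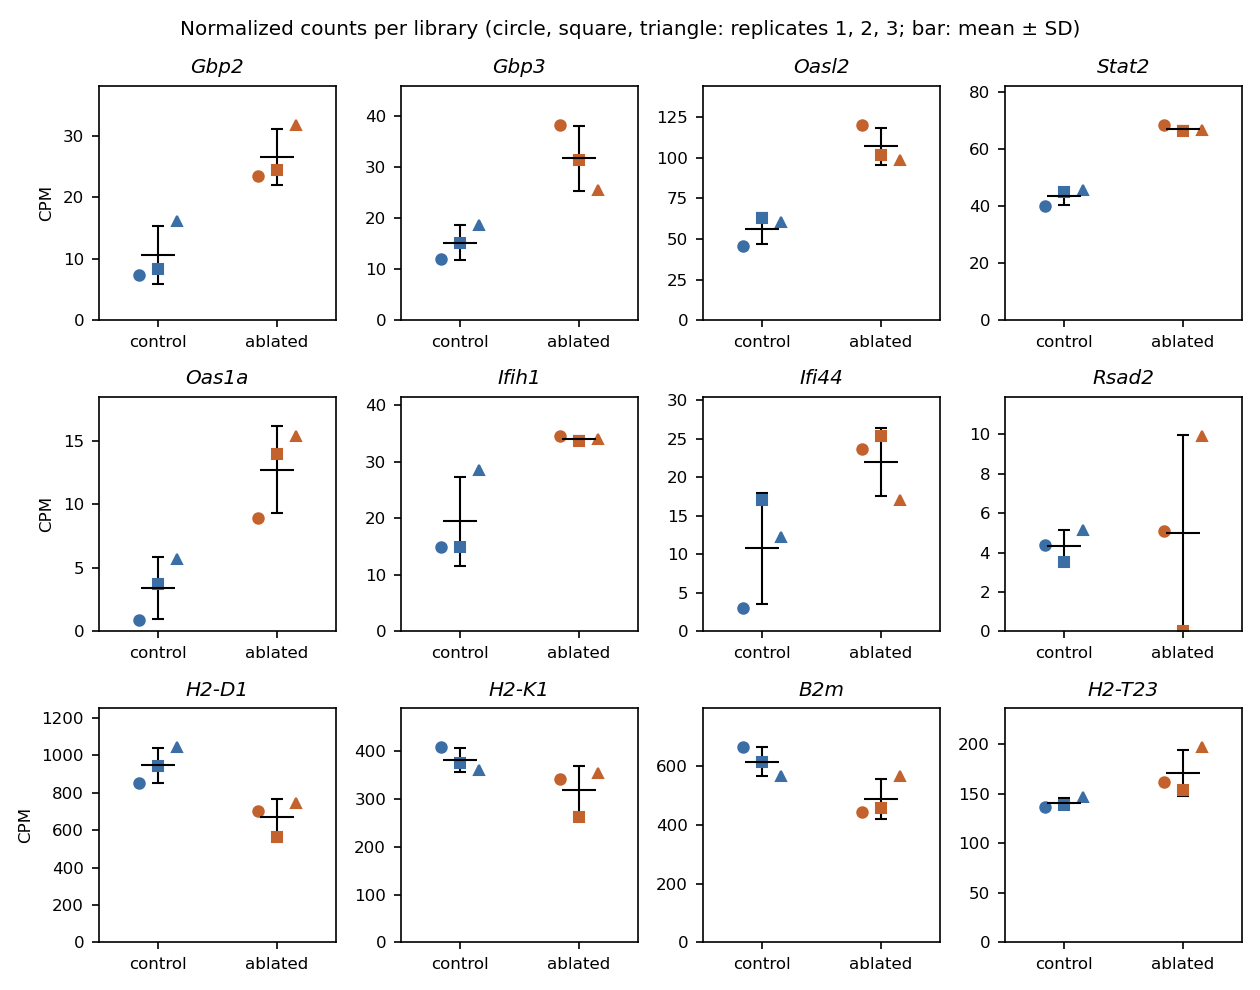
Normalized counts (y axis, CPM, from 0) of 12 genes in each library, with symbols for replicates 1 to 3 and a bar for the mean ± SD (n = 3 per group). Gbp2, Gbp3, Oasl2, Stat2, Oas1a and Ifih1 show no overlap between groups, whereas Rsad2 spans 0 to 9.90 CPM within the Ptch1-ablated group.

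Ifih1, Eif2ak2, the IFIT genes, Trim25 and Samd9l act on foreign RNA, on its sensing or on translation. None passed in edgeR or DESeq2, and Ifih1, Eif2ak2 and Ifit1 had an unadjusted edgeR p under 0.05. Ifih1, the cytosolic RNA sensor MDA5, measured 14.9, 14.9 and 28.6 CPM in the controls and 34.6, 33.7 and 34.1 CPM in the Ptch1-ablated libraries. Control replicate 3 lay far above the other controls, and without it Ifih1 passed at a log2 fold change of 1.19, against 0.81 ± 0.29 over all libraries (edgeR adjusted p = 0.121). Eif2ak2, the kinase PKR that stops translation when it meets double-stranded RNA, measured 14.1 to 17.1 CPM against 21.8 to 29.7 CPM and had a log2 fold change of 0.70 ± 0.26. The IFIT genes lie close together in the genome and their proteins bind foreign RNA ends. Ifit1 was at 0.61 ± 0.24, Ifit3 at 0.11 ± 0.15 and Ifit2 at -0.26 ± 0.19 on the log2 scale. All 3 overlapped between groups, and Ifit1 passed only in both limma fits on TPM. Trim25, a ubiquitin ligase of RNA sensing, was at 0.17 ± 0.20, and Samd9l, an antiviral and growth-restraining gene, was at 0.39 ± 0.27.

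Isg15, the ubiquitin-like protein that interferon induces, was low in every library. It measured 2.16, 2.63 and 2.63 CPM in the controls and 4.05, 3.87 and 5.60 CPM in the Ptch1-ablated libraries. The groups did not overlap, but the log2 fold change of 0.86 ± 0.62 did not pass (edgeR adjusted p = 0.490). Isg15 passed in both limma fits on TPM and in no other fit. Isg20, an exonuclease, measured 10.4, 5.58 and 2.93 CPM against 5.03, 3.10 and 5.39 CPM, and its log2 fold change of -0.48 ± 0.57 was above 0 in limma on TPM and without control replicate 1. Ifi44, an interferon-induced gene of unclear role, measured 2.98, 17.1 and 12.3 CPM in the controls and 23.6, 25.3 and 17.0 CPM in the Ptch1-ablated libraries. Control replicate 1 was far below the other controls, and Ptch1-ablated replicate 3 overlapped with control replicate 2. Its log2 fold change of 1.03 ± 0.49 did not pass (edgeR adjusted p = 0.268). Rsad2, viperin, measured 4.41, 3.52 and 5.12 CPM in the controls and 5.07, 0 and 9.90 CPM in the Ptch1-ablated libraries. The 0 counts of Ptch1-ablated replicate 2 allow up to 0.127 CPM by counting error alone, and the log2 fold change of 0.20 ± 1.10 turned negative without Ptch1-ablated replicate 3, under the replicate block and in limma on TPM.

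In TPM, Ifitm3, Ifi27 and Bst2, which encode membrane proteins, were the most abundant of the antiviral genes in the controls. None passed in edgeR or DESeq2, and Ifi27 had an unadjusted edgeR p under 0.05. Ifitm3, which blocks viral entry at endosomes, measured 428, 391 and 317 CPM in the controls and 313, 332 and 351 CPM in the Ptch1-ablated libraries, and the groups overlapped. Its log2 fold change was -0.19 ± 0.14 on counts and 0.03 in limma on TPM. Bst2, the tether that holds budding virus at the cell surface, measured 49.6, 53.9 and 48.5 CPM against 30.4, 38.6 and 45.5 CPM. Each Ptch1-ablated library was below each control, yet the log2 fold change of -0.41 ± 0.21 did not pass (edgeR adjusted p = 0.302). Ifi27, a small membrane protein, measured 166, 203 and 169 CPM against 132, 129 and 158 CPM, with a log2 fold change of -0.36 ± 0.15 (edgeR adjusted p = 0.206). The other antiviral genes were Rtp4 at -0.34 ± 0.27, Ifi35 at 0.12 ± 0.21 and the apoptosis-linked Xaf1 at 0.01 ± 0.37, all with overlapping groups, and each of the 3 changed sign in at least 1 alternative fit. Of the ADP-ribosyltransferase genes Parp14 was at 0.54 ± 0.30 and its neighbor Parp9 at 0.06 ± 0.24, and neither passed. Over the 19 antiviral effectors 13 had a fold change above 0, the median was 0.17 and 1 passed.

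The guanylate binding proteins, GTPases that assemble on the vacuoles and membranes of intracellular pathogens, were the subgroup with the highest median, 1.06, and 2 of 3 passed. Gbp2 (Entrez 14469) measured 7.43, 8.31 and 16.1 CPM in control replicates 1 to 3 and 23.5, 24.4 and 31.7 CPM in Ptch1-ablated replicates 1 to 3. Control replicate 3 was the highest control and still below each Ptch1-ablated library. Gbp2 rose by a log2 fold change of 1.32 ± 0.34, or 2.50-fold (edgeR adjusted p = 0.0309). Gbp3 (Entrez 55932) measured 11.9, 15.0 and 18.7 CPM against 38.2, 31.4 and 25.4 CPM, again with no overlap. Gbp3 rose by a log2 fold change of 1.06 ± 0.27, or 2.08-fold (edgeR adjusted p = 0.0316). Both calls held in 10 of 15 alternative fits. The calls were lost without control replicate 1, control replicate 2, Ptch1-ablated replicate 1 or Ptch1-ablated replicate 2 in both genes, without Ptch1-ablated replicate 3 in Gbp2, and under the replicate block in Gbp3. Gbp7, which lies next to Gbp3 in the genome, measured 54.5, 53.4 and 54.6 CPM against 59.2, 67.5 and 76.1 CPM. Its log2 fold change was 0.32 ± 0.18 and did not pass (edgeR adjusted p = 0.345), although the groups did not overlap. The reads of these similar genes were split between genes in some libraries.

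Of the 4 MHC class I chains, H2-D1 fell and none rose, and the median was -0.29. H2-D1 (Entrez 14964), a classical heavy chain, measured 853, 941 and 1044 CPM in the controls and 701, 561 and 744 CPM in the Ptch1-ablated libraries. Each Ptch1-ablated library was below each control, with Ptch1-ablated replicate 2 the lowest. H2-D1 fell by 0.50 on the log2 scale (error 0.14, edgeR adjusted p = 0.0421), a level 1.41-fold higher in controls. It passed in 6 of 15 alternative fits, and its fold change ran from -0.59 to -0.29. H2-K1 (Entrez 14972), the other classical heavy chain here, measured 409, 376 and 360 CPM against 342, 262 and 354 CPM. The groups came close without overlapping, and the log2 fold change was -0.26 ± 0.14 (edgeR adjusted p = 0.358). B2m (Entrez 12010), the light chain shared by all MHC class I molecules, measured 666, 614 and 569 CPM against 444, 458 and 568 CPM. Ptch1-ablated replicate 3 nearly reached control replicate 3, and the log2 fold change of -0.33 ± 0.13 did not pass (edgeR adjusted p = 0.179). These 3 fold changes were below 0 in all 15 alternative fits.

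H2-T23 (Entrez 15040), the nonclassical heavy chain Qa-1 that natural killer cell receptors recognize, had the opposite sign. It measured 136, 138 and 146 CPM in the controls and 162, 154 and 197 CPM in the Ptch1-ablated libraries, with no overlap. The log2 fold change of 0.28 ± 0.15 did not pass on counts (edgeR adjusted p = 0.323) and passed in both limma fits on TPM. All 6 estimated counts of H2-D1 and H2-T23, and 5 of 6 of H2-K1, were fractional, so reads were divided among genes and that division is uncertain. B2m had whole counts only.

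Of the 5 genes that supply peptides to MHC class I none passed in edgeR or DESeq2, and none had an unadjusted edgeR p under 0.05. Tap2, a chain of the peptide transporter, measured 83.7, 73.2 and 69.4 CPM in the controls and 63.8, 46.5 and 62.2 CPM in the Ptch1-ablated libraries. Tap1, the other chain, measured 56.1, 58.2 and 43.2 CPM against 71.4, 51.4 and 53.0 CPM. The log2 fold change was -0.39 ± 0.19 for Tap2 (edgeR adjusted p = 0.267), without overlap of the groups, and 0.16 ± 0.21 for Tap1, with overlap. Tapbp, tapasin, which bridges the transporter and the heavy chain, was at -0.06 ± 0.14 and changed sign under scaling by totals only, in limma on TPM and without Ptch1-ablated replicate 2. The immunoproteasome subunits Psmb8 and Psmb9 were at 0.36 ± 0.28 and -0.19 ± 0.49, the second of which changed sign in limma on TPM and without control replicate 2. Psmb9 and Tap1 start 225 bases apart on opposite strands, and their exons overlap in a reference annotation. Whether counting used the strand is not stated in the sources used here, so reads of this pair may not be told apart. The same holds for Irf7 and Phrf1, Eif2ak2 and Gm26637, and Parp9 and Dtx3l on opposite strands, and, on the same strand, for Irf9 and Rnf31 and for Tapbp and Zbtb22. Of these members, Tap1, Psmb9, Irf7 and Irf9 had whole counts only. Estimated counts were fractional in 6 of 6 libraries for Eif2ak2 and in 5 of 6 for Parp9 and Tapbp. Nlrc5, the transactivator of MHC class I genes, was the lowest gene of the set per length at 2.10 ± 1.13 TPM in controls and 3.02 ± 1.10 TPM in Ptch1-ablated libraries (SD, n = 3 each). Its log2 fold change was 0.30 ± 0.46.

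Levels of different genes were compared in TPM, which are scaled by gene length. B2m, Ifitm3 and H2-D1 were the 3 highest in the controls, at 1966 ± 124, 1819 ± 239 and 1257 ± 153 TPM, and Ifitm3, B2m and H2-D1 were the 3 highest in the Ptch1-ablated libraries, at 1850 ± 140, 1809 ± 201 and 1024 ± 97.0 TPM (SD, n = 3 each). The 2 highest differed by less than either SD in the Ptch1-ablated libraries and by less than the SD of Ifitm3 in the controls. The genes that rose were far below, with Oasl2 at 45.5 ± 8.15 against 100.4 ± 11.3 TPM and Gbp2 at 9.58 ± 4.52 against 27.5 ± 3.79 TPM. The 3 guanylate binding proteins summed to 41.8 ± 7.86 against 85.8 ± 2.07 TPM, and the 4 MHC class I chains to 4004 ± 66.2 against 3687 ± 307 TPM. The whole set took 0.772 ± 0.0185% of TPM in the controls and 0.781 ± 0.0406% in the Ptch1-ablated libraries, a difference smaller than the spread between libraries. On the TPM scale the median of all genes moved up by 0.19 to 0.22 (log2), so fold changes in limma on TPM are to be read against that shift. Relative to it the median of the set was 0.21 to 0.27 higher than that of all genes, beside 0.28 higher on TMM-scaled counts.

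The libraries differed in level across the set. The median deviation of the 39 genes from their group mean was 0.14 (log2) in Ptch1-ablated replicate 3, in which 26 genes were above the mean. It was -0.10 in Ptch1-ablated replicate 2, in which 12 genes were above the mean, and 0.01 in each control. The same pair of libraries marked the MHC class I chains, at 0.19 in Ptch1-ablated replicate 3 and -0.19 in Ptch1-ablated replicate 2. Over all genes tested the medians lay between -0.0047 and 0.028.

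**Figure D4:**
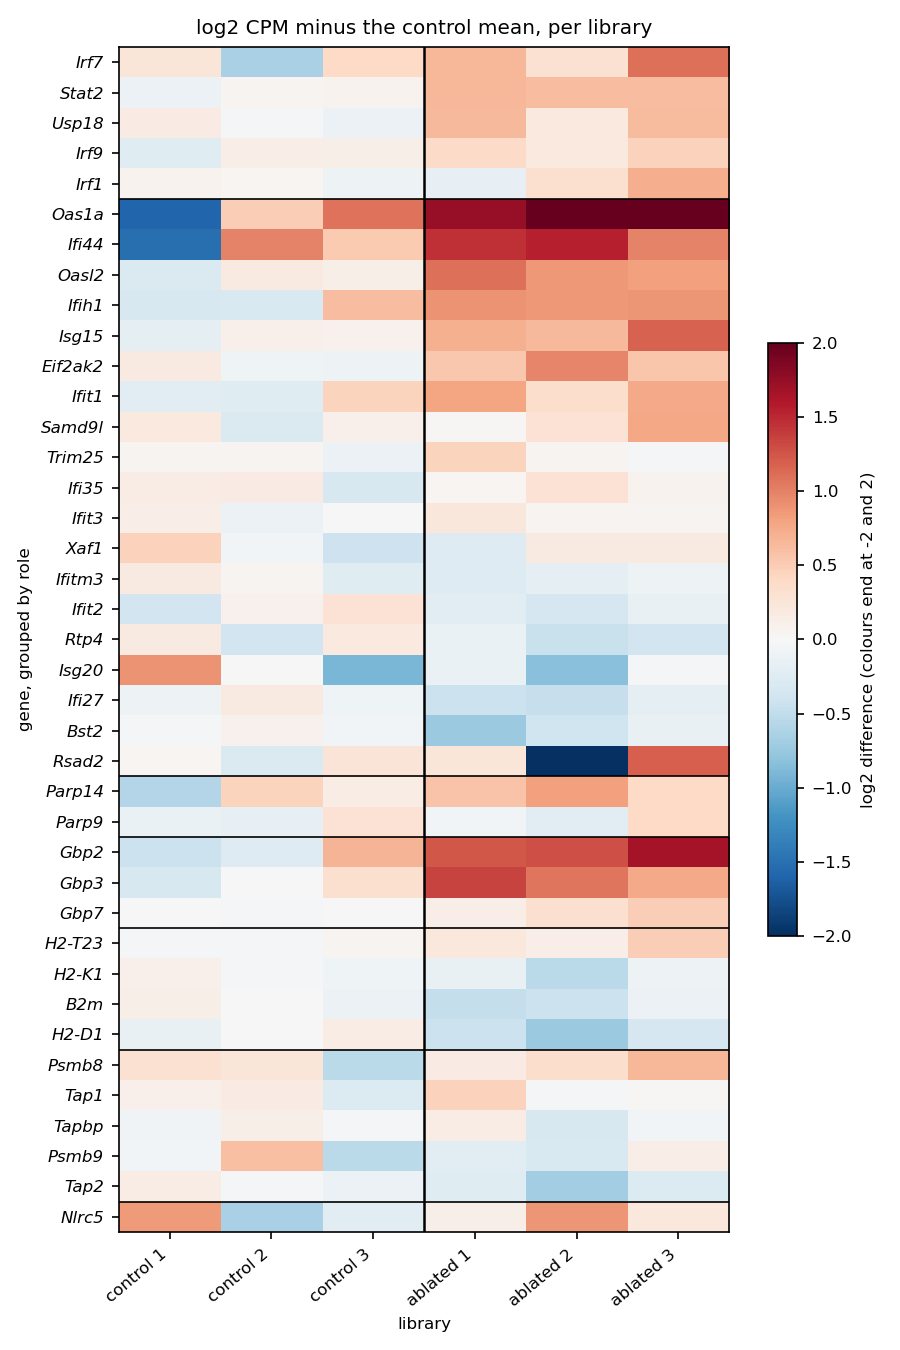
Log2 CPM minus the control mean (colour, which ends at -2 and 2) for each gene (y axis, grouped by role) in each of the 6 libraries (x axis). Gbp2, Gbp3, Oasl2 and Oas1a are red in all 3 Ptch1-ablated libraries, H2-D1, B2m and H2-K1 are blue, and Rsad2 is dark blue in Ptch1-ablated replicate 2, where it had 0 counts.

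Other genes of the pathway were then examined in lists chosen by function. The background for these lists and the marker lists below was 4.68% of all genes tested that rose in edgeR and 3.80% that fell. In DESeq2, 997 of 15453 genes rose and 816 fell. Differences from this background were not tested. Of 14 listed interferon ligands and receptors, 8 were found and 6 could be tested. None passed in edgeR, in which 1 had an unadjusted p under 0.05, and 1 passed in DESeq2. Ifnb1 had 15 counts in Ptch1-ablated replicate 2 and 0 in the other libraries, and Ifng reached at most 0.443 CPM. The receptor chain Ifnar1, which binds type I interferon, was at 145, 158 and 170 CPM against 185, 231 and 230 CPM, with no overlap and a log2 fold change of 0.45 ± 0.15 (edgeR adjusted p = 0.0922). Of 14 JAK, STAT, IRF and feedback genes, 3 rose and none fell in edgeR, in which 1 had an unadjusted p under 0.05 on the lower side, and the median was 0.42. DESeq2 gave 5 rises and 1 fall. Socs3, a feedback inhibitor of cytokine receptors, rose by 0.81 ± 0.13, the kinase Jak1 by 0.62 ± 0.15 and the transcription factor Stat3 by 0.58 ± 0.16 (edgeR adjusted p = 0.0023, 0.0196 and 0.0442). Socs3 passed in each fit without 1 library, Jak1 in 1 of the 6 and Stat3 in none. Of 17 nucleic acid sensors and adaptors, 1 passed. That was Dhx58, the RNA sensor LGP2, which fell by 1.00 on the log2 scale (error 0.28, edgeR adjusted p = 0.0477) and passed in no fit without 1 library.

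**Figure D5:**
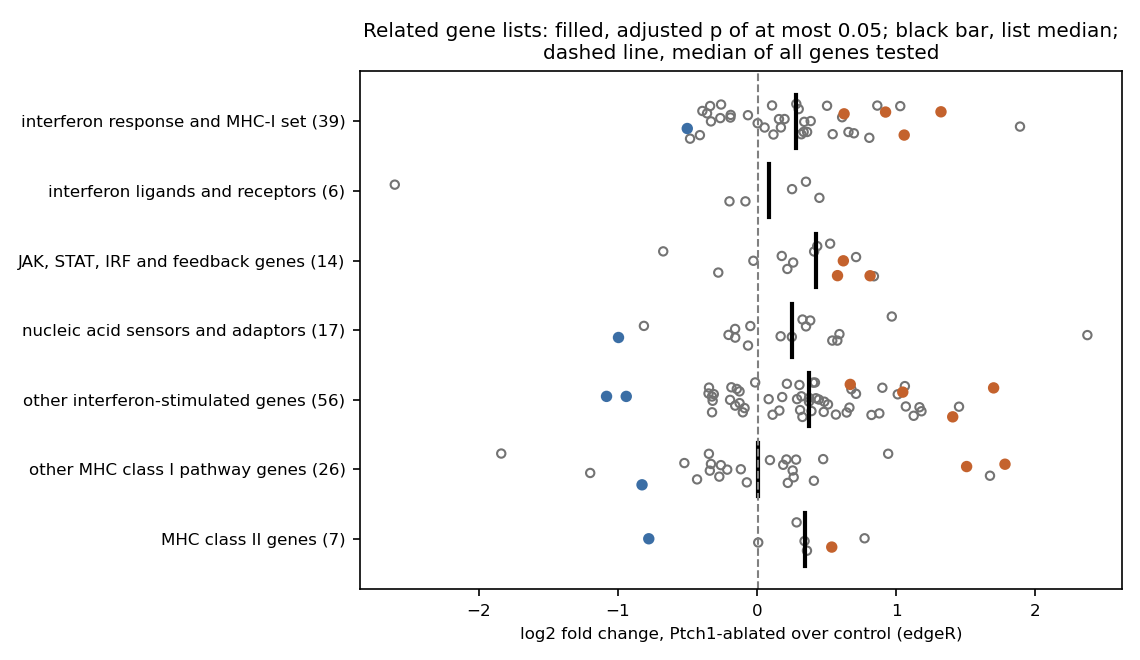
Log2 fold change (x axis, Ptch1-ablated over control) of each tested gene in the interferon and MHC class I set and in 6 related lists (y axis, number tested in brackets), with filled points for an adjusted p of at most 0.05, black bars for list medians and a dashed line for the median of all genes. Medians run from 0.01 for other MHC class I pathway genes to 0.42 for JAK, STAT, IRF and feedback genes, and each list holds points on both sides of 0.

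A wider list of 63 other interferon-stimulated genes, of which 56 could be tested, held 4 rises and 2 falls, with a median of 0.37. Of all genes tested, 4.68% rose and 3.80% fell. Cmpk2, a mitochondrial nucleotide kinase, rose by 1.70 ± 0.40, the guanylate binding protein gene Gbp9 by 1.41 ± 0.33, the secreted Lgals3bp by 1.05 ± 0.13 and the surface protein gene Ly6e by 0.67 ± 0.12. The falls were of Ifi30, a lysosomal thiol reductase, at -1.08 ± 0.20, and of Ifitm2, a relative of Ifitm3, at -0.94 ± 0.15. Lgals3bp, Ly6e, Ifi30 and Ifitm2 passed in each fit without 1 library, and Cmpk2 and Gbp9 passed in 3 of 6. Of 26 tested genes among other MHC class I pathway genes, 2 rose and 1 fell, with a median of 0.01 that was -0.04 under upper quartile scaling. H2-T24, a nonclassical heavy chain, rose by 1.78 ± 0.43, Mr1, which presents vitamin B metabolites to T cells, rose by 1.51 ± 0.21, and Hfe, an MHC-like regulator of iron uptake, fell by 0.83 on the log2 scale. Mr1 and Hfe passed in each fit without 1 library and H2-T24 in 3 of 6, and DESeq2 gave 2 rises and 2 falls in this list. Among 7 MHC class II genes, which are mostly expressed by antigen-presenting leukocytes, Cd74 rose by 0.54 ± 0.10 and H2-DMa fell by 0.78 on the log2 scale, with a median of 0.34.

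Markers of other cells in the sorted fraction moved as well. Among 14 leukocyte markers Itgam and Laptm5 rose and none fell in edgeR or DESeq2, the summed level of the list was 1191 to 1260 CPM in controls and 1232 to 1409 CPM in Ptch1-ablated libraries, and the pan-leukocyte marker Ptprc was at 27.7 to 57.3 against 39.6 to 52.2 CPM. Of 8 vascular endothelium markers 5 rose (Vwf, Tie1, Cdh5, Emcn and Pecam1), with summed levels of 705 to 904 CPM in controls and 1038 to 1104 CPM in Ptch1-ablated libraries. Kdr, the receptor of vascular endothelial growth factor, had the opposite sign and did not pass in edgeR (adjusted p = 0.112). It measured 464, 557 and 639 CPM in the controls and 402, 428 and 431 CPM in the Ptch1-ablated libraries, with a log2 fold change of -0.40 ± 0.14. DESeq2 gave 7 rises and 1 fall in the vascular list. Of 7 tested corneal epithelium markers Krt5, Krt14 and Krt15 fell and Krt12, at 0 in each control, rose, with summed levels of 43.9 to 71.7 against 3.31 to 10.4 CPM. Krt12 had 21, 49 and 52 counts in Ptch1-ablated replicates 1 to 3. In the fits without 1 library, Krt14 and Krt15 passed in each, Krt5 in 2 of 6 and Krt12 in 1 of 6. Of the leukocyte and vascular rises above, Itgam passed in 1 of 6 such fits, Pecam1 in 2, Laptm5 in 3 and the others in each. Of 9 keratocyte markers 7 fell. The defining markers Ptprc, Pecam1 and Cdh5 were above 0 in every library. The part of these cells in the values of the interferon and MHC class I genes was not tested.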

How the data were processed

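RNA of sorted corneal keratocytes was measured in 6 libraries, grouped by their titles. The authors aligned reads with Bowtie2 (version 2.2.5) and estimated counts per gene with RSEM (version 1.2.12), and the submitters' processing notes name mm9. Annotation release and strandedness are not given in the sources used here. The labels name an Illumina TruSeq kit, whereas the paper describes ribosomal RNA depletion and a BGISEQ platform. The deposited table holds estimated counts (not normalized, 18.6% of values not whole), TPM values that the authors scaled by effective length and library, FPKM values that the authors scaled by length and fragments (not used in comparisons), and the authors' group means (not used).

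Estimated counts were rounded, filtered with filterByExpr, scaled by TMM and compared with edgeR's quasi-likelihood test (two-sided, no covariates, Benjamini-Hochberg over 13888 genes). Log2 fold changes put Ptch1-ablated over control libraries. The p-values measure the spread between these libraries, which the study calls biological replicates. Alternatives were DESeq2, RLE, upper quartile and total scaling, filtering at a mean count of 50 or not at all, limma on log2(TPM + 1) and log2(TPM + 0.1), the replicate number as a block and leaving out each library. The limit of 3 counts that a count of 0 allows covers counting error only. The fit was tested on simulated counts in which 200 genes changed, all drawn from genes with a mean count above 100. There edgeR called 43 of 100 genes at a log2 change of 1 in either direction and 89 of 100 at 2. It made 6 false calls, and 0 where no change was simulated. Changes of 1 or less on the log2 scale could thus often go uncalled. Recovery of genes with lower counts, Isg15 among them, was not simulated.

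The 39 genes and the lists were chosen with earlier results of these data known. The rule accounted for each of the 39 genes by role and named, of each other list, at most 8 genes past an adjusted p of 0.05 by size of change. Some listed genes are not reported here. Ifnb1, Ifng, Ifnar1, Ptprc and Kdr were named after their values were seen. Promoter windows came from RefSeq (GRCm38.p6), matched by symbol. The edgeR version was 4.0.16, run in R 4.3.3 with DESeq2 1.42.0 and limma 3.58.1, and figures used Python 3.11.15, pandas 2.3.3 and matplotlib 3.10.9.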

Additional observations from a re-analysis of the deposited data

How the results depend on the processing

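Of 585 values over the 39 genes and 15 alternative fits, 511 kept their direction and their side of the threshold, 28 lost a call, 18 gained one and 28 changed sign. The number of rises (4) was 10 in both limma fits on TPM and 1 to 5 without 1 library. The number of falls (1) was 0 under library totals only, both limma fits and the replicate block, and 0 to 1 without 1 library. Genes past both thresholds (2) numbered 4 under library totals only and in limma on log2(TPM + 1), 5 in limma on log2(TPM + 0.1) and 0 to 4 without 1 library. The median of the set (0.28) was 0.45 under library totals only, 0.40 and 0.49 in limma with pseudocounts of 1 and 0.1, and 0.16 to 0.33 without 1 library. DESeq2 gave 5 rises and 1 fall. Under library totals only the median of all genes moved to 0.17 and all calls split into 1024 rises and 386 falls, against 650 and 528 with TMM, and in limma on log2(TPM + 1) into 1181 and 442. Without 1 library, 424 to 587 of all genes rose and 327 to 439 fell.

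The replicate numbers did not pair the libraries, since the deviations of same-numbered libraries correlated at -0.055, -0.047 and 0.046 over genes. With the replicate block the rises were 3 (Oas1a, Oasl2 and Gbp2), the median was 0.28 and Rsad2 turned to -0.85.

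In limma with pseudocounts of 1 and 0.1, Isg20 turned to 0.0250 and 0.0432, Rsad2 to -0.13 and -0.97, Ifitm3 to 0.0301 in both, Rtp4 to 0.0634 and 0.0651, Tapbp to 0.14 and 0.14 and Psmb9 to 0.0820 and 0.0882. Xaf1 turned to -0.0425 under upper quartile scaling and Tapbp to 0.10 under library totals only. The median of all genes was 0.19 and 0.22 in these limma fits, above each of these limma values. It was 0.17 under library totals only, above that of Tapbp. Without 1 library the ranges were -0.82 to 0.0846 for Isg20, -0.78 to 0.79 for Rsad2, -0.18 to 0.27 for Xaf1, -0.0238 to 0.20 for Ifi35, -0.15 to 0.22 for Parp9, -0.0055 to 0.25 for Tap1, -0.18 to 0.0530 for Tapbp and -0.42 to 0.17 for Psmb9. None of these genes passed in any fit, and the cause of the sign changes was not tested. With 3 libraries a group, an exact permutation test of a single gene cannot go below p = 0.1.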
